A study of Danio rerio with 3 samples.

Results

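The genes described are 6 Hairy-related transcriptional repressors of the zebrafish (Danio rerio): her5, her1, her3, her6, her7 and her9. They were taken by gene symbol from a deposited table of 25386 genes, and all 6 were found. They were selected on their FPKM values in these 3 libraries, her5 because its level was lower still at the later of the 2 time points under treatment, so the levels of the 6 genes are given as a description with no test. Poly(A) RNA of whole wild-type embryos, freed of the chorion, was sequenced in 3 libraries, 1 per group. Embryos of the first group received a yolk injection of 0.65 ng of wheat germ agglutinin (WGA) in 1 nl of water at the 1-cell stage and were collected at 5 hours post fertilisation (hpf), when the embryos resembled dome stage. The second received the same injection and was collected at 4.3 hpf. The third was wild type at 4.3 hpf, at dome stage, with no treatment named. WGA is a lectin that binds sugar-modified nucleoporins and so hinders traffic through nuclear pores, and the study asked what such a block does to zygotic genome activation, when an embryo starts to transcribe its own genes. No mock injection is described for the wild-type embryos, so WGA and the injection itself cannot be told apart. The series holds no wild-type library at 5 hpf, so for that time WGA and the later age cannot be told apart. The number of embryos per library is not given in the labels.

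Hairy and Enhancer-of-split proteins are basic helix-loop-helix repressors that bind DNA as dimers and recruit Groucho corepressors (Tle proteins in vertebrates) through a short motif at their carboxy terminus. Many of their genes are switched on by Notch signalling, others are set by position in the embryo, and as a family they hold back neuronal differentiation and drive the segmentation clock. In zebrafish, her5 is expressed early in mesendoderm precursors and later keeps the midbrain-hindbrain boundary free of neurons. her6 is related to mammalian Hes1, her3 represses the proneural gene neurog1, her9 acts between the proneural domains, and her1 and her7 are the oscillating pair of the segmentation clock.

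Levels are in FPKM (fragments per kilobase of transcript, relative to all mapped fragments of the library), a unit per length, so levels of different genes can be set side by side. Ratios are log2 ratios of FPKM + 1, which understates the differences of low genes. A gene counted as lower or higher at 2-fold or more on that scale, provided that it had 1 FPKM or more in one of the libraries compared. Counts and ratios against wild type are named by the time of the WGA library, and wild type was at 4.3 hpf throughout. The comparison at 4.3 hpf thus matches clock time, while that at 5 hpf matches only the dome-like shape. With 1 library per group no value below has a replicate check and no p-value was computed. The depth of the libraries is unknown. The FPKM values summed to 401114 to 430459 per library, and 13128 to 13739 genes per library had 1 FPKM or more. The maternal factors nanog, pou5f3 and sox19b were at 56.6 FPKM or more in each library. Of 9 genes of differentiated cell types matched in the table, 8 were under 1 FPKM in all 3 libraries (0 to 0.72 FPKM), and the exception was the neuronal gene elavl3 at 0.23, 0.4 and 2.24 FPKM in WGA at 5 hpf, WGA at 4.3 hpf and wild type.

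her5 was the most abundant of the 6 genes in every library, and both WGA libraries stood far below wild type. her5 (NCBI Gene 30285) was at 4.59 FPKM in WGA embryos at 5 hpf, 17.52 FPKM in WGA embryos at 4.3 hpf and 72.82 FPKM in wild type. The later WGA library was thus the lowest of the 3, below the earlier WGA library. Whether her5 also falls from 4.3 to 5 hpf without WGA cannot be seen, since there is no wild type at 5 hpf. In WGA at 4.3 hpf the log2 ratio to wild type was -1.99 (3.99-fold lower, or 4.16-fold as a plain quotient of FPKM). In WGA at 5 hpf it was -3.72 (13.2-fold lower, 15.9-fold as a plain quotient). Between the WGA libraries, 5 hpf over 4.3 hpf, it was -1.73 (3.31-fold lower, 3.82-fold as a plain quotient). Because the samples are whole embryos, fewer cells that express her5 and less her5 RNA per cell cannot be told apart.

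her6 was the other member above 1 FPKM, and its low level under WGA was about the same at both times. her6 (NCBI Gene 30288) was at 3.19 FPKM in WGA embryos at 5 hpf, 3.68 FPKM in WGA embryos at 4.3 hpf and 16.01 FPKM in wild type. Its log2 ratio to wild type was -1.86 at 4.3 hpf (3.64-fold lower) and -2.02 at 5 hpf (4.06-fold lower). Between the WGA libraries it was -0.16 (5 hpf over 4.3 hpf). her5 and her6 thus had similar ratios to wild type at 4.3 hpf and different ones at 5 hpf. As plain quotients, her5 was 1.44 times her6 in WGA at 5 hpf, 4.76 times in WGA at 4.3 hpf and 4.55 times in wild type.

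The remaining 4 members were under 1 FPKM in all 3 libraries, between 0.16 and 0.98 FPKM. Under the limit of 1 FPKM they thus entered none of the counts. her3 (NCBI Gene 30289) came closest to the limit, at 0.32 FPKM in WGA at 5 hpf, 0.44 FPKM in WGA at 4.3 hpf and 0.98 FPKM in wild type, with both WGA libraries below wild type. her9 (140613) was at 0.34, 0.19 and 0.43 FPKM in WGA at 5 hpf, WGA at 4.3 hpf and wild type. The segmentation clock pair had its lowest value in wild type. her1 (30287) was at 0.28, 0.37 and 0.16 FPKM in the same order of libraries, and her7 (58132) at 0.55, 0.75 and 0.5 FPKM. No read number is known behind such low values, and no difference is read from them. The log2 ratios of these 4 genes ran from -0.58 for her3 to 0.24 for her1.

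**Figure D1:**
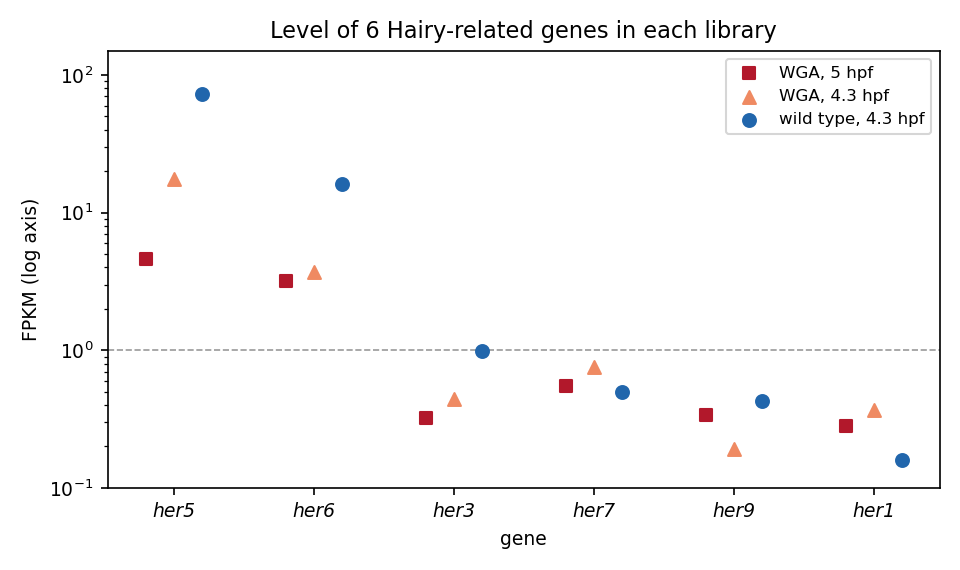
FPKM (vertical, log axis) of the 6 Hairy-related genes (horizontal) in the single library of each group: red squares WGA at 5 hpf, orange triangles WGA at 4.3 hpf, blue circles wild type at 4.3 hpf; the dashed line is 1 FPKM. her5 stands at 4.59, 17.52 and 72.82 FPKM and her6 at 3.19, 3.68 and 16.01 FPKM, while the other 4 genes lie under 1 FPKM in all libraries.

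Read against the whole table, 2 of 6 members were high enough to be counted in each comparison, and both were lower by 2-fold or more in WGA than in wild type. Of all 14263 genes compared between WGA and wild type at 4.3 hpf, 8.97% were lower and 7.21% higher by 2-fold or more. Of 14158 genes compared between WGA at 5 hpf and wild type at 4.3 hpf, 7.92% were lower and 5.3% higher. Between the WGA libraries 1 of the 2 counted members, her5, was lower by 2-fold or more, against 48 of 13478 genes (0.356%) lower and 0.772% higher. Lower genes made up 55.5%, 59.9% and 31.6% of those past 2-fold in WGA at 4.3 hpf over wild type, WGA at 5 hpf over wild type and 5 over 4.3 hpf, and 16.6%, 34.1% and 82.0% when libraries were scaled to ribosomal protein genes. The members were picked with these ratios in view, so nothing is drawn from the counts. her5 ranked 339 from the lowest at 4.3 hpf, first at 5 hpf and 2 between the WGA libraries. These ranks depended on the processing. With a pseudocount of 0.1 in place of 1, her5 ranked 864 at 4.3 hpf, 12 at 5 hpf and 13 between the WGA libraries. Under TPM scaling it ranked 566, first and 6. That scaling brings each library to the same, larger sum and so raises every value. The pseudocount and the limit of 1 were kept, so both act as smaller ones would on FPKM. With it 16398 genes were compared at 4.3 hpf in place of 14263. With the pseudocount of 1 and no scaling, the gene below her5 between the WGA libraries was LOC797305, named after its values were seen. It was listed at 0 FPKM in WGA at 5 hpf, 3.44 FPKM in WGA at 4.3 hpf and 0 FPKM in wild type. her6 ranked 439, 222 and 4391 from the lowest in WGA at 4.3 hpf over wild type, WGA at 5 hpf over wild type and 5 over 4.3 hpf.

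**Figure D2:**
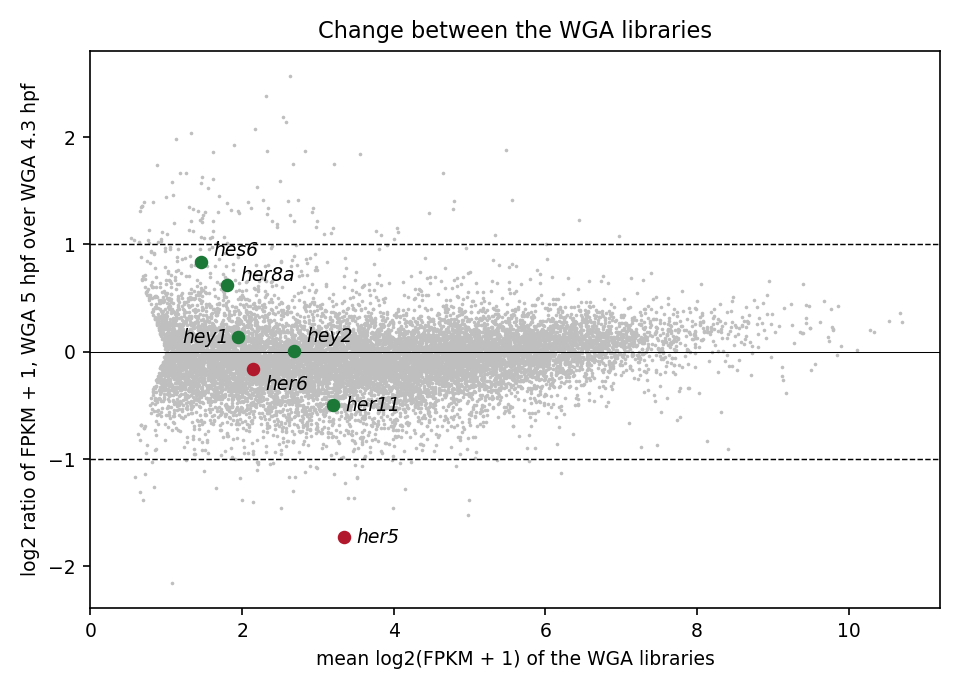
Log2 ratio of FPKM + 1, WGA at 5 hpf over WGA at 4.3 hpf (vertical), against the mean log2(FPKM + 1) of the WGA libraries (horizontal) for 13478 genes with 1 FPKM or more in either (grey); red points are her5 and her6, green points other family genes, dashed lines 2-fold. her5 lies at -1.73, below the grey cloud at its level, while her6 and the other labelled genes lie within 2-fold.

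her5 held the largest share of the summed level of the 6 genes in every library. That sum was 9.27 FPKM in WGA at 5 hpf, 22.95 FPKM in WGA at 4.3 hpf and 90.9 FPKM in wild type. her5 made up 49.5% of that sum in WGA at 5 hpf, 76.3% in WGA at 4.3 hpf and 80.1% in wild type. Without her5 the sums were 4.68, 5.43 and 18.08 FPKM, of which her6 made up 3.19, 3.68 and 16.01 FPKM. The near-level sums of the WGA libraries thus rest mostly on her6. her5 and then her6 were the highest in every library, and the order below them differed between libraries. Of all genes in the table, 63.7% had a lower FPKM than her5 in WGA at 5 hpf, 78.4% in WGA at 4.3 hpf and 94.7% in wild type.

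Among the few other genes of the Hairy, Hes and Hey family with a level high enough to be counted, her11, hey1, her8a and hes6 were lower under WGA and hey2 was higher. Of 23 further family genes listed, 19 were matched, 13 of them were under 1 FPKM in all libraries (0 to 0.89 FPKM), and 6 were counted against wild type. At 4.3 hpf 4 of the 6 were lower by 2-fold or more and 1 was higher (median log2 ratio -1.81, all genes 0.03). Beside these stand 8.97% and 7.21% of all genes. At 5 hpf the counts were again 4 lower and 1 higher (median -1.08, all genes -0.02), beside 7.92% and 5.3% of all genes. Under ribosomal protein scaling 2 were lower at 5 hpf, beside 5.70% of all genes. Between the WGA libraries none of 5 counted genes reached 2-fold in either direction (median 0.14, all genes -0.05). Of all genes, 0.356% were lower and 0.772% higher there. Under TPM scaling 5 of 8 counted genes were lower and 1 higher at 4.3 hpf, beside 10.9% and 9.88% of all genes. At 5 hpf that scaling gave 5 lower and 2 higher of 9, beside 9.82% and 6.60%. Between the WGA libraries it gave 0 lower and 2 higher of 8, beside 0.897% and 1.22%. The near-identical copies of the her4 and her15 clusters that were matched are among the 13 low genes, and reads shared between such copies make them uncertain one by one.

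her11, which acts with her5 at the midbrain-hindbrain boundary, is the direct neighbour of her5 in NCBI's GRCz12tu gene table, used here for names and neighbours alone. her11 (445409) was at 6.74 FPKM in WGA at 5 hpf, 9.91 FPKM in WGA at 4.3 hpf and 39.69 FPKM in wild type. Like her5 it was lowest in the later WGA library, but between the WGA libraries its log2 ratio was -0.50, within 2-fold. Against wild type its log2 ratio was -1.90 at 4.3 hpf and -2.39 at 5 hpf. her5 was 0.681 times her11 in WGA at 5 hpf, 1.77 times in WGA at 4.3 hpf and 1.83 times in wild type, so the order of the neighbours was turned round in the later WGA library alone. The gene on the other side of her5, pfdn6, which encodes a prefoldin chaperone subunit, was at 3.46, 5.62 and 8.96 FPKM in WGA at 5 hpf, WGA at 4.3 hpf and wild type. It too was lowest at 5 hpf under WGA, by a smaller margin than her5. The sources used here do not say whether fragments were counted by strand, so reads that overlap between neighbours could not be separated. her1 and her7 are also neighbours in that table, and both were under 1 FPKM throughout.

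Among the remaining family genes, hey1 came closest to the pattern of her6. hey1 (58008) was at 3.05 FPKM in WGA at 5 hpf, 2.68 FPKM in WGA at 4.3 hpf and 14.02 FPKM in wild type, a log2 ratio to wild type of -1.89 at 5 hpf and -2.03 at 4.3 hpf. her8a (323656) was at 3.34, 1.82 and 8.38 FPKM in WGA at 5 hpf, WGA at 4.3 hpf and wild type. hes6 (373116), a partner of other Hairy proteins in the segmentation clock, was at 2.68, 1.06 and 6.66 FPKM. Unlike her5, her8a and hes6 were higher in the later WGA library than in the earlier one, with log2 ratios of 0.62 and 0.84, both within 2-fold (hes6 reached 1.05 under TPM scaling). hey2 (58146), known from specification of the artery, was at 5.43 and 5.38 FPKM in WGA at 5 and 4.3 hpf against 1.73 FPKM in wild type, the only counted family gene higher by 2-fold or more (log2 ratio 1.24 at 5 hpf and 1.22 at 4.3 hpf). her8.2 was at 0.21 and 0.16 FPKM in WGA at 5 and 4.3 hpf against 1.1 FPKM in wild type, and was counted through the wild-type library alone. Its log2 ratio to wild type was -0.80 at 5 hpf and -0.86 at 4.3 hpf, and -1.23 and -1.35 under TPM scaling. her5 made up 14.0% of the summed level of the 25 family genes in WGA at 5 hpf, 38.5% in WGA at 4.3 hpf and 44.3% in wild type.

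**Figure D3:**
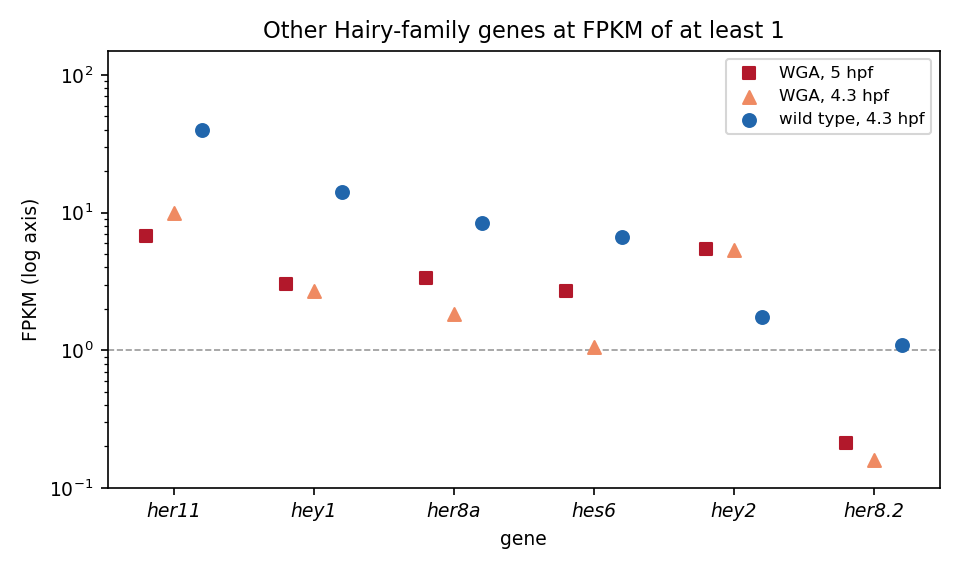
FPKM (vertical, log axis) of the 6 other Hairy-family genes that reached 1 FPKM in any library (horizontal), with red squares for WGA at 5 hpf, orange triangles for WGA at 4.3 hpf, blue circles for wild type and a dashed line at 1 FPKM. her11 is lowest in WGA at 5 hpf (6.74 FPKM), her8a and hes6 are lowest in WGA at 4.3 hpf (1.82 and 1.06 FPKM), and hey2 is lowest in wild type (1.73 FPKM).

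Genes of the Notch pathway, which drives many Hairy genes in later embryos, were also counted. Across ligands, receptors, processing enzymes and the nuclear complex, all 46 listed genes were matched and 34 were counted against wild type. At 4.3 hpf 2 were lower and 1 was higher by 2-fold or more (median log2 ratio 0.02), beside 8.97% and 7.21% of all genes. At 5 hpf 3 were lower and 0 higher (median -0.02), beside 7.92% and 5.3% of all genes. Between the WGA libraries 0 of 33 reached 2-fold in either direction (median -0.03), beside 0.356% of all genes lower and 0.772% higher. Under scaling to ribosomal protein genes the medians against wild type became 0.70 and 0.33 at 4.3 and 5 hpf. At 4.3 hpf that scaling gave 11 genes higher and 1 lower, beside 27.7% of all genes higher and 5.52% lower. At 5 hpf it gave 5 higher and 1 lower, beside 11.0% higher and 5.70% lower.

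Notch ligand genes were low. Of 9 ligand genes, 7 were under 1 FPKM in all libraries, and those counted were jag2b (3.88, 4.69 and 3.09 FPKM in WGA at 5 hpf, WGA at 4.3 hpf and wild type) and jag1b (0.39, 0.52 and 1.38 FPKM). The receptor gene notch1a was at 48.27 and 47.03 FPKM in WGA at 5 and 4.3 hpf against 35.49 FPKM in wild type, within 2-fold. The gene rbpja, which encodes the DNA-binding partner of the Notch intracellular domain, was at 49.91 and 50.66 FPKM in WGA at 5 and 4.3 hpf against 37.97 FPKM in wild type. The other receptor genes were no higher than jag2b in any library, with notch2 at 2.94, 3.7 and 2.69 FPKM in WGA at 5 hpf, WGA at 4.3 hpf and wild type, notch3 at 1.01, 0.37 and 1.53 FPKM, and notch1b at 0.16 FPKM or less.

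Of the counted Notch pathway genes, lfng had the largest ratio to wild type at both times. lfng, a fringe glycosyltransferase gene whose product modifies Notch receptors, was at 9.65 and 12.22 FPKM in WGA at 5 and 4.3 hpf against 47.11 FPKM in wild type (log2 ratio -2.18 at 5 hpf and -1.86 at 4.3 hpf). Its values ordered the 3 libraries as those of her5 did. nrarpa, a Notch target whose product dampens Notch signalling, was at 5.39 and 5.48 FPKM in WGA at 5 and 4.3 hpf against 12.03 FPKM in wild type. Its ratio of -1.01 at 4.3 hpf dropped under 2-fold with any other scaling tried. The acetyltransferase gene ep300a was higher at 4.3 hpf (18.43 FPKM in WGA against 7.18 FPKM in wild type, log2 ratio 1.25).

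The Groucho family includes the corepressors that Hairy proteins recruit, and 5 of its genes were counted. Of these 5 genes, 2 were past 2-fold above wild type at each time and 0 below it. Of all genes, 7.21% and 5.3% were higher at 4.3 and 5 hpf, and 8.97% and 7.92% lower. Between the WGA libraries 0 of the 5 reached 2-fold, beside 0.356% of all genes lower and 0.772% higher. tle3a was at 85.03 and 90.05 FPKM in WGA at 5 and 4.3 hpf against 39.17 FPKM in wild type, 2.14-fold higher at 5 hpf and 2.27-fold higher at 4.3 hpf. The gene listed as aes, now tle5, which encodes a short family member, was at 12.66 and 14.3 FPKM in WGA at 5 and 4.3 hpf against 5.68 FPKM in wild type. The most abundant gene, tle2 (now tle2a), was at 133.45 FPKM in WGA at 5 hpf, 119.6 FPKM in WGA at 4.3 hpf and 132.33 FPKM in wild type. Under ribosomal protein scaling 4 of 6 counted Groucho genes were higher at 4.3 hpf, beside 27.7% of all genes. Among them were tle3b at 1.39 and zgc:136336, now tle2c, at 1.06.

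Lists of genes tied to the tissues in which her5 is known were read in whole embryos, so no tissue is read by itself. Of 18 midbrain-hindbrain and proneural genes, 11 were under 1 FPKM in all libraries, among them the boundary genes pax2a, wnt1, en2a and en2b (0 to 0.54 FPKM) and the her3 target neurog1 (0.55, 0.75 and 0.24 FPKM in WGA at 5 hpf, WGA at 4.3 hpf and wild type). Of the 7 counted, 4 were lower and 1 higher at 4.3 hpf, beside 8.97% and 7.21% of all genes. At 5 hpf 3 were lower and 0 higher, beside 7.92% and 5.3%. Between the WGA libraries 0 were lower and 1 higher, beside 0.356% and 0.772%. The median log2 ratios were -1.73, -0.87 and 0.04 (all genes 0.03, -0.02 and -0.05). The median at 4.3 hpf depended on which low genes were counted. It was -0.59 over 10 genes under TPM scaling (all genes 0.10). Under ribosomal protein scaling it was -0.36 over 8 genes (all genes 0.66). At 4.3 hpf gbx1 was counted through wild type alone (0.71 FPKM in WGA, 7.82 FPKM in wild type) and gbx2 through WGA alone (1.52 and 0.61 FPKM). id1, which encodes an inhibitor of helix-loop-helix proteins, was at 40.54 and 42.61 FPKM in WGA at 5 and 4.3 hpf against 269.71 FPKM in wild type. fgf8a, a signal of the boundary, was at 4.72 FPKM in WGA at 5 hpf, 1.29 FPKM in WGA at 4.3 hpf and 9.43 FPKM in wild type, the opposite order of the WGA libraries from her5.

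Most counted mesendoderm genes were also low at 4.3 hpf, and 5 of them were higher by 2-fold or more in the later WGA library, where her5 was lower. Of all genes, 8.97% were lower and 7.21% higher by 2-fold or more at 4.3 hpf, and 7.92% and 5.3% at 5 hpf. Between the WGA libraries 0.356% were lower and 0.772% higher. Of the 11 mesendoderm genes counted, 9 were lower and 1 higher at 4.3 hpf (median log2 ratio -2.00). At 5 hpf 5 of the 11 were lower and 1 higher (median -0.99). Between the WGA libraries 5 of them were higher and 0 lower (median 0.97, against -1.73 for her5). The gene on the higher side against wild type was the maternal T-box gene eomesa, at 148.05 and 142.45 FPKM in WGA at 5 and 4.3 hpf against 58.65 FPKM in wild type. gata5 was at 3.87 FPKM in WGA at 5 hpf, 0.57 FPKM in WGA at 4.3 hpf and 9.03 FPKM in wild type. It was among the genes counted at 4.3 hpf through the wild-type library alone. The endoderm gene mixl1 was at 12.64 FPKM in WGA at 5 hpf, 5.14 FPKM in WGA at 4.3 hpf and 23.15 FPKM in wild type. The lower side between the WGA libraries held 1 gene, the chemokine receptor gene cxcr4a, at 9.95, 11.53 and 73.82 FPKM in WGA at 5 hpf, WGA at 4.3 hpf and wild type (log2 ratio -0.19 between the WGA libraries). At 5 hpf 4 genes were lower under median-of-ratios scaling and 3 under ribosomal protein scaling, beside 7.47% and 5.70% of all genes. Under the latter scaling gata5 and gata6 came to -0.74 and -0.86. Under ribosomal protein scaling mixl1 and the Nodal ligand gene ndr2 were within 2-fold between the WGA libraries, at 0.87 each. With that scaling 3 of the 11 were higher, beside 0.576% of all genes.

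Of the genes that act with her1 and her7 in segmentation, 1 or 2 passed 2-fold in each comparison. Of 14 listed, 8, 6 and 7 were counted in WGA at 4.3 hpf over wild type, WGA at 5 hpf over wild type and 5 over 4.3 hpf. At 4.3 hpf 2 were lower and 0 higher, at 5 hpf 1 was lower and 0 higher, and between the WGA libraries 1 was higher and 0 lower (median log2 ratios -0.12, -0.48 and -0.02), beside 8.97%, 7.92% and 0.356% of all genes lower and 0.772% higher between the WGA libraries. tbx16, a T-box gene of the paraxial mesoderm, was at 39.68 FPKM in WGA at 5 hpf, 23.43 FPKM in WGA at 4.3 hpf and 161.44 FPKM in wild type. The T-box gene ta, now tbxta, was at 8.95, 2.75 and 18.67 FPKM in the same libraries. Both stood higher in the later than in the earlier WGA library. The somite gene mespaa was at 0.25 FPKM in WGA at 5 hpf, 1.01 FPKM in WGA at 4.3 hpf and 0.72 FPKM in wild type. Its log2 ratio between the WGA libraries was -0.69, and it was past 2-fold lower under TPM (-1.13) and ribosomal protein scaling (-1.01). Beside these stand 0.897% and 2.63% of all genes lower. mespaa was counted there through WGA at 4.3 hpf alone, just above the limit, so no difference is read from it.

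**Figure D4:**
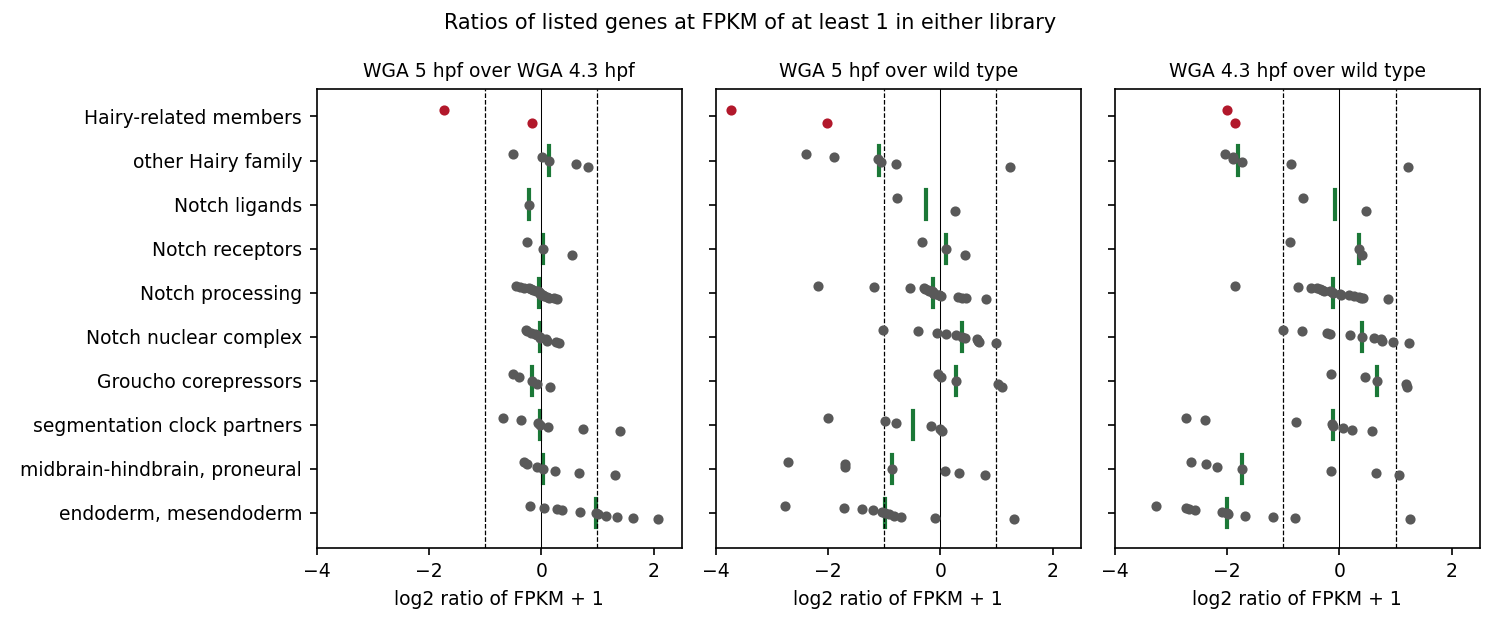
Log2 ratios of FPKM + 1 (horizontal) of the genes of each list (vertical) with 1 FPKM or more in either library, for WGA 5 hpf over WGA 4.3 hpf, WGA 5 hpf over wild type and WGA 4.3 hpf over wild type; points are genes, red for her5 and her6, green bars list medians, dashed lines 2-fold. her5 at -1.73 lies left of every other listed gene in the left panel, where the mesendoderm median is 0.97.

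Patterns like those of the counted members were sought among 8284 other named genes that reached 5 FPKM, as the smallest distance over the pair of log2 ratios to wild type (3 libraries). The 5 nearest to her5 were the zinc-finger genes znf995, blf, znf1085 and znf1137 and the heat shock gene hsp70.3, at distances of 0.61 to 0.94. znf995 was at 16.46 FPKM in WGA at 5 hpf, 30.93 FPKM in WGA at 4.3 hpf and 168.9 FPKM in wild type. blf was at 36.7, 53.87 and 353.93 FPKM in the same libraries. All 5 were lower in the later WGA library, with log2 ratios from -0.87 to -0.44 against -1.73 for her5. Reads of numbered zinc-finger genes and of hsp70 copies can be shared with near copies. Uncharacterised genes were not searched, and LOC108183338 and LOC110439613, named after their values were seen, came nearer to her5 than the 5 above. Their log2 ratios to wild type were -2.17 and -2.02 at 4.3 hpf and -3.69 and -3.47 at 5 hpf. Between the WGA libraries these genes were at -1.52 and -1.45. LOC108183338 stood just above her5 there, at 17.57 FPKM at 5 hpf and 52.15 FPKM at 4.3 hpf (238.5 FPKM in wild type). Among the named genes searched, those nearest to her6 were snai1b, znf1102, foxd3, lratb and arl5c, at distances of 0.05 to 0.10. The neural crest and pluripotency gene foxd3 was at 4.34 FPKM in WGA at 5 hpf, 5.37 FPKM in WGA at 4.3 hpf and 21.42 FPKM in wild type, and snai1b, a Snail-family repressor gene, at 2.59, 3.23 and 13.95 FPKM.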

How the data were processed

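The authors deposited 1 table of FPKM values, rounded to 2 decimals, for 25386 genes in 3 libraries, whose columns carry the libraries' names. Trimmomatic 0.36, Bowtie2 2.2.5, RSEM 1.2.8 and GRCz11 appear in the submitters' processing notes, without roles. The annotation release and any scaling between libraries are not given in the sources used here. Log2 ratios of FPKM + 1 were computed (Python 3.11.15, NumPy 2.4.6, pandas 2.3.3) for 3 comparisons, and both with wild type share its 1 library. Depth is unknown: among 4235 genes at 0.1 to 1 FPKM the quotient of the WGA libraries peaked at 0.997, 2.40 times the mean over the range searched, and the peaks against wild type were weaker (1.93 and 1.61 times). Members and 12 gene lists (140 entries, 134 matched, 14 of them through NCBI gene numbers) were chosen with earlier results of these data known. The naming rule took the members, family genes at 1 FPKM or more, up to 4 genes per list and comparison by absolute ratio, and the 5 nearest patterns. rbpja, ndr2, pfdn6, neurog1, elavl3 and the low boundary genes stand outside it and were named after their values were seen. Values of 1 listed gene are not reported here.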

Additional observations from a re-analysis of the deposited data

How the results depend on the processing

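Under 9 alternatives (pseudocounts of 0.1 and 0.5, a filter at FPKM 5, no filter, TPM, median-of-ratios and ribosomal protein scaling, calls at 1.5-fold and 3-fold) the counts of members lower and higher and the calls of her5 and her6 were the same as reported in all 3 comparisons. The number of members counted did change. It was 4 in each comparison under TPM, and 3 under ribosomal protein scaling at 4.3 hpf and between the WGA libraries. With the filter at FPKM 5 it was 1, her5, between the WGA libraries. Dropping the filter could not change a call, since 2-fold on FPKM + 1 already needs 1 FPKM in one library, so 8 of the alternatives bear on the calls. The her5 log2 ratio ranged from -2.05 to -1.30 for WGA at 4.3 hpf over wild type, from -3.96 to -3.41 for WGA at 5 hpf over wild type and from -2.11 to -1.70 for 5 over 4.3 hpf. her9 changed sign once, to 0.01 for WGA at 5 hpf over wild type under ribosomal protein scaling, far from any call. That scaling, to the median of 83 genes, shifted the median over the whole table from 0.03 to 0.66 (WGA at 4.3 hpf over wild type), from -0.02 to 0.31 (WGA at 5 hpf over wild type) and from -0.05 to -0.36 (5 over 4.3 hpf). Relative to those medians the her5 ratio was -1.96, -3.72 and -1.75 under this scaling and -2.02, -3.70 and -1.68 as reported. Subtracting the median takes out a shift that all genes share. The closeness of these values was thus fixed in advance and is no check of her5. her8a and hes6 came to -0.82 and -0.78 at 5 hpf, within 2-fold.

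The counts over all genes changed with the processing. No contrast with the members is drawn, since those were picked with their ratios in view. For WGA at 4.3 hpf over wild type, 1280 lower and 1028 higher became 783 and 937 at FPKM 5, 1782 and 1620 under TPM, and 823 and 4131 under ribosomal protein scaling. For WGA at 5 hpf over wild type, 1122 and 751 became 1696 and 1067 with a pseudocount of 0.1, 723 and 677 at FPKM 5, and 825 and 1593 under ribosomal protein scaling. For 5 over 4.3 hpf, 48 and 104 became 158 and 207 with a pseudocount of 0.1, 98 and 142 with 0.5, 36 and 49 at FPKM 5, 140 and 191 under TPM, and 379 and 83 under ribosomal protein scaling. Calls at 1.5-fold and 3-fold gave 2180 and 2587, then 616 and 266, for the first comparison, 2126 and 1876, then 473 and 218, for the second, and 539 and 304, then 2 and 22, for the third. Each alternative changes the cut-off, pseudocount, filter or scale, and the counts over all genes move with it. TPM also raised every value against the unchanged pseudocount and filter. The cause of the differences between the libraries was not tested. No paired analysis was possible because each group has 1 library, and for the same reason none could be left out.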
